A study of Homo sapiens with 12 samples.

Results

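Hepcidin is the liver peptide hormone, encoded by HAMP, that limits iron entry into plasma. HAMP and 9 further genes of hepcidin control and iron handling (TFRC, TFR2, FTH1, FTL, HFE, BMP6, ID1, TMPRSS6 and STEAP3) were followed in RNA-seq data of 2 human liver cancer cell lines. The 10 genes were chosen by name, and the group was selected on the HepG2 contrast, in which HAMP was lower after FASRL knockdown while its inducer IL6 was higher. Values in that contrast are therefore given for these genes and IL6 as a description with no p-value, and nothing is read from them. Of the 10 genes, 8 were among the 8842 genes with values, and ID1 and STEAP3 were not analysed here.

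HepG2 and LM3, both established lines that stand for liver tumor cells in culture, were transfected with an siRNA against the long noncoding RNA FASRL (siFASRL) or with a negative control siRNA (siNC) and harvested after 48 h. Each of the 4 groups, HepG2 siNC, HepG2 siFASRL, LM3 siNC and LM3 siFASRL, had 3 replicates, which makes 12 libraries. FASRL itself was not analysed here. The labels do not say that replicates came from separate cultures, so p-values measure the spread between these libraries, which may be technical. The values are normalized RSEM values scaled for gene length and library size. They are not read counts, and the read depth and the counting error of a value are unknown. Fold changes are on the log2(value + 1) scale, on which changes of low genes appear smaller than they are. Past the threshold means that the limma p adjusted by Benjamini and Hochberg (BH) was under 0.05 and the log2 change was 1 or more in size. SE is the standard error of a log2 change. Small decreases, with a log2 ratio from -0.20 to -0.04 under siFASRL, were found for 5 of the 6367 HepG2 genes with a mean of at least 5 and for 578 of 5937 such genes in LM3. The listed genes are thus a subset that nearly lacks small decreases in HepG2, and every percentage of genes refers to this subset.

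Hepcidin binds the iron exporter ferroportin on gut, macrophage and liver cells and leads to its breakdown, so that high hepcidin keeps iron out of plasma. Hepatocytes make HAMP transcript in response to BMP6, which signals through BMP receptors and SMAD proteins, and in response to IL6, which signals through STAT3. HFE and TFR2 sense transferrin-bound iron and raise BMP-SMAD signalling, while the protease TMPRSS6 lowers it. Inside cells, iron regulatory proteins bind stem-loops in transcripts, where they protect the TFRC transcript and block translation of the ferritin transcripts when iron is low.

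The HAMP promoter is shown because the BMP and IL6 arms meet there. The 250 bases before the HAMP start in the RefSeq table (GRCh38.p14, plus strand, chr19:35282278-35282527) are printed with 2 motifs in capitals, the BMP-responsive letters GGCGCC and the STAT letters TTCNNNGAA, both searched on both strands.
HAMP: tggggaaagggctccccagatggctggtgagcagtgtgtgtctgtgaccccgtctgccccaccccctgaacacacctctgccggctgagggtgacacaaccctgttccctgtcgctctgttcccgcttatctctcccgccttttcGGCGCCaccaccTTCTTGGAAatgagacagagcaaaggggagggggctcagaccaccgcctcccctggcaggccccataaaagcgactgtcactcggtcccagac
GGCGCC began 105 bases and TTCNNNGAA 93 bases before the start, and they did not overlap. These distances hold for the RefSeq start. GENCODE v29 begins the HAMP gene farther upstream, at position 35280716 of chromosome 19, so the printed window lies inside its span. Over the same 250 bases, GGCGCC was found in 5752 of 35116 promoters (16.4%) and TTCNNNGAA in 2306 (6.57%). Of the 10 genes, 7 were matched in the table by gene ID, and FTH1, TFR2 and TMPRSS6 were not searched. GGCGCC was also found in the promoters of TFRC and STEAP3, and TTCNNNGAA in none of the other 6. A match describes letters in this window and no binding was measured here.

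In HepG2 siNC, HAMP had values of 271, 279 and 271, and in HepG2 siFASRL 40.6, 36.5 and 36.1. All siFASRL libraries lay far below all siNC libraries, and 13.8% of the siNC mean remained. The mean went from 274 ± 4.83 to 37.7 ± 2.51 (SD, n = 3), a log2 change of -2.83 (SE 0.062). In LM3, HAMP was listed at 0, 0 and 0.25 under siNC and at 0.08, 0 and 0.08 under siFASRL. The LM3 groups overlapped near 0, and HAMP did not pass the filter on low values there. Without that filter, the only alternative that gave HAMP a test in LM3, the log2 change was -0.03 (limma BH-adjusted p = 0.772). The order of the HAMP levels was HepG2 siNC, HepG2 siFASRL and then both LM3 groups, which could not be told apart from each other. HAMP (gene in GENCODE v29, chr19:35280716-35285143) overlaps no other annotated gene.

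**Figure D1:**
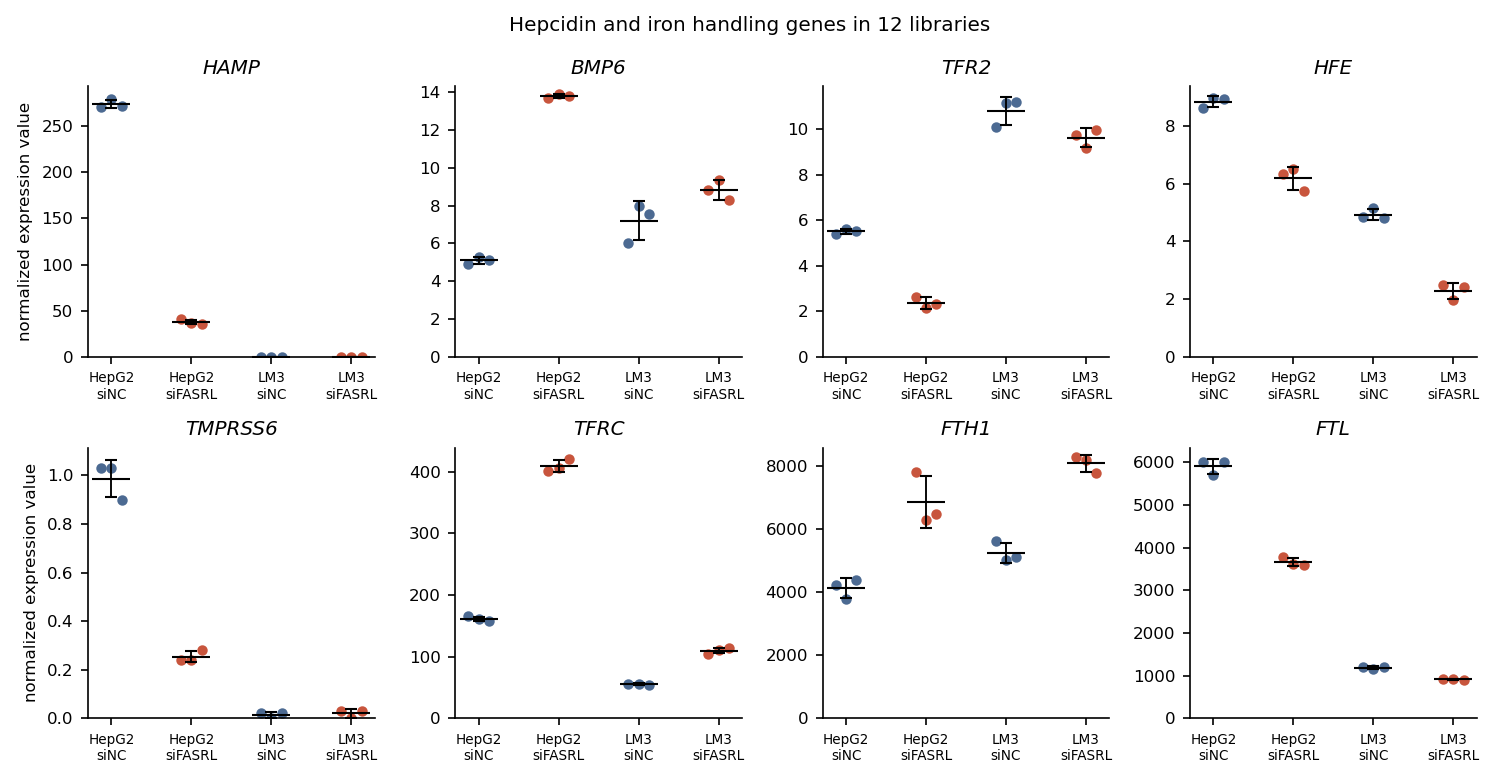
Normalized expression value of the 8 listed genes in each of the 12 libraries, on linear axes that start at 0. Points are replicates, the wide bar is the mean and the error bar the SD (n = 3). HAMP is near 274 in HepG2 siNC, near 37.7 in HepG2 siFASRL and near 0 in both LM3 groups, and TFRC is higher under siFASRL in both lines.

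Of the 8 listed genes, 7 passed the filter on low values (at least 1 in at least 3 of 6 libraries) in HepG2 and 6 in LM3. In HepG2, 3 of the 7 were past the threshold, HAMP lower and TFRC and BMP6 higher, against 10.4% of all genes tested, and nothing is read from this count since the group was selected on this contrast. In all 7 the siFASRL and siNC values did not overlap, as in 89.6% of all genes, and this too is a description. In LM3, 0 of the 6 were past the threshold, against 7.62% of all genes. By limma, all 6 had an unadjusted and an adjusted p under 0.05 (3 higher and 3 lower), beside 77.4% of all genes by adjusted p, and the groups of all 6 did not overlap, beside 80.1%. With shares this high over all genes, the counts show nothing particular to the group.

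IL6, the cytokine that induces HAMP through STAT3, had values of 1.17, 1.2 and 1.22 in HepG2 siNC and 41.0, 41.4 and 38.2 in HepG2 siFASRL. In LM3 it went from 2.30, 2.07 and 2.24 to 28.2, 27.3 and 27.2. IL6 was thus high in every siFASRL library of both lines, including the HepG2 libraries in which HAMP was low. STEAP1B and an antisense gene overlap IL6 on the other strand, and without strand their reads cannot be told apart. In LM3 the log2 change was 3.16 (SE 0.051, limma BH-adjusted p = 1.68e-08). Of 10 IL6-STAT3 pathway genes, 5 were tested in HepG2, and all 5 were higher with an adjusted p under 0.05. Among all genes tested in HepG2, 89.1% had such an adjusted p, 44.8% being higher and 44.3% lower. The median log2 change of the 5 was 0.65 beside 0.10 over all genes. SOCS3, a STAT3 target that feeds back on the pathway, was past the threshold in HepG2, where it rose from 30.8 ± 1.42 to 74.0 ± 4.65 (SD, n = 3). Its log2 change was 1.24 in HepG2 (limma BH-adjusted p = 2.17e-07) and 0.23 in LM3 (adjusted p = 0.00545), where it was 0.48 under quantile normalization. STAT3 itself rose by log2 changes of 0.65 and 0.40. In LM3, 3 of the 5 genes (SOCS3, STAT3 and the phosphatase gene PTPN11) were higher by adjusted p, beside 33.9% of all genes, and IL6R, the receptor gene, went from a mean of 3.26 to 3.10 without passing the test.

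Acute-phase genes, many of which hepatocytes also raise in response to IL6, did not rise in HepG2. Of 16 such genes 10 were tested, and all 10 were lower with an adjusted p under 0.05, beside 44.3% of all genes. The median log2 change was -0.996 beside 0.10 over all genes, and 5 were lower past the threshold, beside 6.79% of all genes. HP (haptoglobin) fell from 66.1, 64.6 and 55.6 to 13.2, 12.5 and 14.9, a log2 change of -2.12 (SE 0.085, limma BH-adjusted p = 5.5e-08). Every siFASRL value of HP lay below every siNC value. The other genes past the threshold were FGL1 (-1.91), SAA4 (-1.55), ORM1 (-1.12) and SERPINA3 (-1.10), of which ORM1 and SAA4 have close paralogs with which reads could be shared. In LM3, none of the 10 passed the filter on low values (0 tested).

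**Figure D2:**
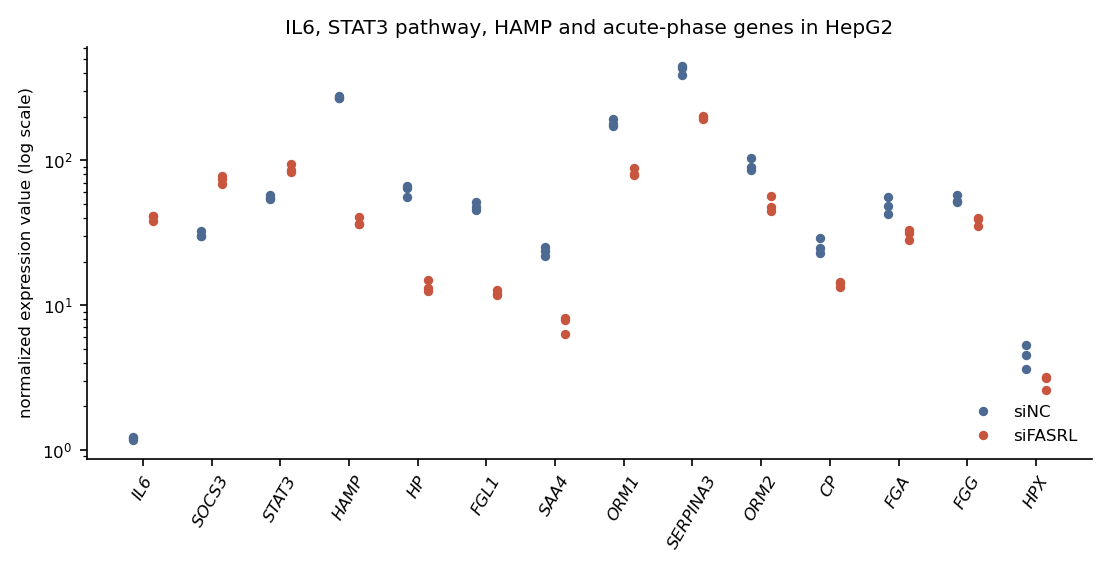
Normalized expression value in the 6 HepG2 libraries, on a log scale, for IL6, SOCS3, STAT3, HAMP and the 10 tested acute-phase genes. Each point is a replicate. IL6, SOCS3 and STAT3 are higher under siFASRL, while HAMP and all 10 acute-phase genes are lower.

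The HAMP transcription factor list held the liver factors CREB3L3, CEBPA and HNF4A, which are known to bind or act on the HAMP promoter. In HepG2 these 3 fell past the threshold, as did 6.79% of all genes. In LM3, where 4 genes of the list were tested, 3 fell and 1 rose by adjusted p, beside 43.5% lower and 33.9% higher among all genes, with a median log2 change of -0.95 beside -0.06 over all genes. CREB3L3, a membrane-bound factor, had values of 7.13, 5.53 and 7.13 in HepG2 siNC and 1.31, 1.13 and 1.2 in HepG2 siFASRL. In LM3 it went from 25.1, 19.8 and 19.2 to 2.68, 3.35 and 2.38. CREB3L3 was thus low in all siFASRL libraries of both lines, with log2 changes of -1.77 in HepG2 and -2.55 in LM3 (limma BH-adjusted p = 1.64e-07 and 6.06e-07). CEBPA fell by 1.12 and 0.90 and HNF4A by 1.05 and 0.998 on the log2 scale, so that in LM3 only CREB3L3 of the 4 tested genes was past the threshold. Of all genes in LM3, 7.62% were past the threshold. HNF4A missed it there narrowly and passed with a pseudocount of 0.1 (-1.09) and without LM3 siFASRL replicate 2 (-1.08) or LM3 siNC replicate 3 (-1.003), and CEBPA passed with a pseudocount of 0.1 (-1.02) and without LM3 siNC replicate 1 (-1.04). Without HepG2 siNC replicate 2, CEBPA was at -0.98 in HepG2. PPARGC1A was the exception, at 0.22 in LM3 (adjusted p = 0.02) and 0.07 in HepG2 (adjusted p = 0.288). Its LM3 change was 0.41 under quantile normalization and 0.14 without LM3 siNC replicate 2. The HepG2 value was 0.31 under quantile normalization, 0.02 without HepG2 siFASRL replicate 3 and 0.05 without HepG2 siNC replicate 3.

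Hepatocyte marker genes moved with HAMP in HepG2. Of 10 markers 8 were listed, and 7 of these were lower and 1 (APOA2) was higher by adjusted p, with 5 lower past the threshold. Of all genes, 44.3% were lower by adjusted p and 6.79% lower past the threshold. Their summed value went from 4661, 4628 and 4209 in HepG2 siNC to 2495, 2523 and 2561 in HepG2 siFASRL, and SERPINA1 was the most abundant in both groups (means of 1393 and 906). In LM3 the sum was 0.38, 4.91 and 3.27 under siNC and 1.23, 0.05 and 0.17 under siFASRL, so that the defining markers of hepatocytes were at or near 0 in this line. Means under 1 were found for 7 of the 8 in LM3 siNC, and SERPINA1 had 1.02. The part of these markers in the lower HAMP values was not tested, and in bulk RNA fewer cells of a type and less RNA per cell cannot be told apart. LM3 nevertheless had HNF4A at 14.3, CREB3L3 at 21.4 and TFR2 at 10.8 under siNC.

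BMP6, the ligand that reports liver iron stores and is normally made by liver endothelium, had values of 4.92, 5.27 and 5.15 in HepG2 siNC and 13.7, 13.9 and 13.8 in HepG2 siFASRL. The siFASRL values were all higher, with a log2 change of 1.28 (SE 0.053). In LM3, BMP6 was at 6.03, 8 and 7.58 under siNC and 8.82, 9.35 and 8.30 under siFASRL. The groups came close without overlapping, with a log2 change of 0.27 (SE 0.093, limma BH-adjusted p = 0.0276). This call was lost without LM3 siFASRL replicate 1 (adjusted p = 0.07) or replicate 2 (adjusted p = 0.0933), and the adjusted p ranged from 0.00236 to 0.0933 over the alternatives. The BMP6 change in LM3 was 0.16 without LM3 siNC replicate 1 and 0.42 under quantile normalization. Of 8 endothelial markers 1 was listed, LYVE1, at 0.51, 0.48 and 0.47 in HepG2 siNC, at 3.52, 3.33 and 3.6 in HepG2 siFASRL and at 0.03 or less in LM3. The libraries come from cell line cultures and not from liver tissue. LYVE1 and the further markers below thus describe the cultured cells. The part of LYVE1 in the BMP6 values was not tested. Of 6 macrophage and blood cell markers 2 were listed, with CD68 at means of 41.1 and 44.9 and LYZ at 82.7 and 46.1 in HepG2. Of 6 stellate cell and fibroblast markers 5 were listed, and their summed mean was 67.6 in HepG2 siNC and 46.4 in HepG2 siFASRL. Of the 4 tested in HepG2, 3 fell by adjusted p (COL3A1, COL1A1 and PDGFRB) and ACTA2 rose, beside 44.3% lower and 44.8% higher among all genes. COL3A1 went from a mean of 31.4 to 10.3 (log2 change -1.52, limma BH-adjusted p = 7.54e-08), COL1A1 and PDGFRB changed by -0.34 and -0.54, and ACTA2 went from 10.7 to 17.4 (log2 change 0.65, limma BH-adjusted p = 6.81e-05). In LM3 the summed mean was 14.6 under siNC and 5.45 under siFASRL, and the 2 tested genes fell, COL1A1 past the threshold (-1.45) and PDGFRB by 0.68 on the log2 scale. Of all genes in LM3, 43.5% were lower by adjusted p and 6.2% lower past the threshold.

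BMP2, another ligand that signals to HAMP, rose in both lines. Its values were 31.6, 36.3 and 33.5 in HepG2 siNC and 148, 166 and 167 in HepG2 siFASRL, and 1.55, 2.01 and 1.71 against 4.09, 4.20 and 4.18 in LM3. All siFASRL values were above all siNC values in both lines, with log2 changes of 2.22 (SE 0.073, limma BH-adjusted p = 2.6e-08) and 0.91 (SE 0.067, limma BH-adjusted p = 5.26e-06). Among the 13 BMP ligands, receptors and co-receptors apart from BMP6, 5 were tested in each line and BMP2 alone was past the threshold, in HepG2, and it passed it in LM3 under quantile normalization (1.03) and with a pseudocount of 0.1 (1.2). By adjusted p, 3 rose in HepG2 while ACVR2B fell, and BMP2 rose in LM3 while BMPR2, ACVR1 and ACVR2B fell, beside 44.8% higher and 44.3% lower among all genes in HepG2 and 33.9% and 43.5% in LM3. Past the threshold were 10.4% of all genes in HepG2 and 7.62% in LM3. The 3 lower receptor genes in LM3 had changes of -0.15 to -0.29, which turned to higher values under quantile normalization, and BMPR2 did not pass the test with median-of-ratios scaling (-0.12).

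Genes that SMAD proteins are known to induce moved in both directions. Of 7 BMP-SMAD targets 6 were tested in HepG2, where 4 were lower and 1 was higher by adjusted p, with a median log2 change of -0.41 beside 0.10 over all genes. In LM3 5 were tested, of which 1 was higher, 2 were lower and 2 did not pass the test, with a median of -0.11 beside -0.06. Among all genes, 44.8% were higher and 44.3% lower in HepG2, and 33.9% and 43.5% in LM3. ID2, a target that blocks basic helix-loop-helix factors, had values of 196, 212 and 192 in HepG2 siNC and 55.2, 68.0 and 65.6 in HepG2 siFASRL. It was past the threshold in HepG2 (log2 change -1.66, limma BH-adjusted p = 1.73e-07) and lower in LM3 (-0.94, adjusted p = 0.000118), where it reached -1.09 without LM3 siNC replicate 1 and -1.02 with a pseudocount of 0.1. SMAD6, an inhibitory SMAD that the pathway itself induces, was lower in both lines (-0.89 and -0.82). ID3 was higher in both lines (0.57 and 0.41), and SMAD7 was lower in HepG2 (-0.46) and went from a mean of 8.18 to 8.70 in LM3 without passing the test. Of 4 SMAD genes, SMAD9 was past the threshold in HepG2 (-1.01) and SMAD4, the common partner, did not pass the test in either line. The SMAD9 change fell short of the threshold with median-of-ratios scaling (-0.99) and quantile normalization (-0.83), and likewise without HepG2 siFASRL replicate 2 or HepG2 siNC replicate 1 (-0.97 each). Of 11 inhibitors and modifiers 4 were tested, none past the threshold in HepG2 or LM3 (0 in each), beside 10.4% and 7.62% of all genes. By limma adjusted p 2 rose and 2 fell in HepG2, and in LM3 FST rose and FURIN, SMURF1 and SMURF2 fell. The SMURF1 call in LM3 (-0.16) was lost with median-of-ratios scaling (-0.07), under quantile normalization (-0.08) and without LM3 siFASRL replicate 1 (-0.15) or LM3 siNC replicate 3 (-0.14). All 4 also had an unadjusted p under 0.05 in both lines. FURIN, a protease that matures BMP ligands and hemojuvelin, was lower in both (-0.50 and -0.37).

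TFR2, the receptor that senses transferrin iron in hepatocytes, was at 5.41, 5.62 and 5.53 in HepG2 siNC and at 2.65, 2.16 and 2.31 in HepG2 siFASRL. The LM3 values were 10.1, 11.2 and 11.2 under siNC and 9.75, 9.17 and 9.97 under siFASRL. The HepG2 groups were far apart, with 43.0% of the siNC mean left and a log2 change of -0.95 (SE 0.065), while the LM3 groups lay close together. Without HepG2 siFASRL replicate 1 the HepG2 value was -1.01, and with a pseudocount of 0.1 it was -1.19. The LM3 change of -0.15 (SE 0.059, limma BH-adjusted p = 0.0396) lost its call under 8 of 12 alternatives, among them the replicate block (adjusted p = 0.0643) and quantile normalization (-0.01, adjusted p = 0.862), the highest value over the alternatives. The lowest was 0.00449, without LM3 siNC replicate 1. The call was also lost without any 1 of the other 5 LM3 libraries.

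HFE, the hemochromatosis protein that partners with the transferrin receptors, was at 8.63, 8.98 and 8.93 in HepG2 siNC and 6.33, 6.51 and 5.75 in HepG2 siFASRL. LM3 libraries had 4.83, 5.17 and 4.80 under siNC and at 2.49, 1.98 and 2.41 under siFASRL. HFE was lower in every siFASRL library of each line than in every siNC library of the same line. The log2 change was -0.45 (SE 0.060) in HepG2 and -0.85 (SE 0.070, limma BH-adjusted p = 9.24e-06) in LM3, where 46.5% of the siNC mean remained. With a pseudocount of 0.1 the LM3 change was past the threshold (-1.08), and under quantile normalization it was -0.44.

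TMPRSS6, the protease that dampens hepcidin, had values of 1.03, 1.03 and 0.90 in HepG2 siNC and 0.24, 0.24 and 0.28 in HepG2 siFASRL. It was at 0.03 or less in all 6 LM3 libraries and did not pass the filter in either line. At such low values its ratio in HepG2 (25.7% of the siNC mean) is a description of the listed values. An antisense gene overlaps TMPRSS6, and whether reads were counted by strand is not given in the sources used here.

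Iron-responsive elements of TFRC and FTL are shown because iron regulatory proteins handle these transcripts in opposite ways through them. A search in the GENCODE v29 transcripts took C, 5 bases, the loop CAGTGN and 5 bases that pair with the first 5 (G with T allowed). It found at least 1 match in 291 of 19669 protein-coding genes (1.48%). Each match is printed as 27 bases of the transcript strand on GRCh38, with the loop in capitals. The FTL match lies in exon 1 of 4 in the 5′ UTR (chr19:48965336-48965362, plus strand). The 4 TFRC matches lie in exon 18 of 18 in the 3′ UTR (minus strand, chr3:196050980-196051006, chr3:196050576-196050602, chr3:196050511-196050537 and chr3:196050464-196050490).
FTL: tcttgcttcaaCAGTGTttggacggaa
TFRC match 1: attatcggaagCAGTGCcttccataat
TFRC match 2: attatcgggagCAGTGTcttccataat
TFRC match 3: tgtatcggagaCAGTGAtctccatatg
TFRC match 4: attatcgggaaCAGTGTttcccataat
Whether the other genes held a match is not reported here. The sites act on translation or on transcript stability, and the RNA values here measure transcript level only.

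TFRC, the transferrin receptor that takes up iron, was at 165, 161 and 158 in HepG2 siNC and at 402, 406 and 421 in HepG2 siFASRL. In LM3 it was at 55.9, 56.4 and 53.4 under siNC and at 105, 111 and 114 under siFASRL. TFRC was higher in every siFASRL library of both lines, by 2.54 times in HepG2 and by 1.99 times in LM3. The log2 change was 1.34 (SE 0.053) in HepG2. In LM3 it was 0.98 (SE 0.053, limma BH-adjusted p = 1.33e-06), just short of the threshold, which it passed with median-of-ratios scaling (1.08) and without LM3 siFASRL replicate 1 (1.01).

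FTH1, the ferritin heavy chain that oxidizes iron for storage, was at 4225, 3761 and 4363 in HepG2 siNC and at 7781, 6287 and 6456 in HepG2 siFASRL. In LM3 it was at 5605, 5014 and 5115 under siNC and at 8286, 8163 and 7768 under siFASRL. The FTH1 values were higher under siFASRL in both lines without overlap. The log2 change was 0.73 (SE 0.091) in HepG2 and 0.62 (SE 0.060, limma BH-adjusted p = 2.28e-05) in LM3. Under quantile normalization, which sets the value of so abundant a gene by its rank, the LM3 change was 0.09 (adjusted p = 0.306), the highest adjusted p over the alternatives, and the lowest was 1.85e-06.

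FTL, the ferritin light chain that aids mineral formation, was at 6005, 5687 and 6004 in HepG2 siNC and at 3767, 3606 and 3596 in HepG2 siFASRL. LM3 values were 1212, 1151 and 1204 under siNC and at 926, 919 and 893 under siFASRL. FTL thus went the opposite way to FTH1 in both lines. Its log2 change was -0.69 (SE 0.055) in HepG2 and -0.38 (SE 0.049, limma BH-adjusted p = 0.000132) in LM3. Under quantile normalization the changes were -0.28 and -0.63. GENCODE v29 names 25 FTH1 and 16 FTL pseudogenes, with which reads could be shared, and BEST1 overlaps FTH1 on the other strand.

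The ratio of FTH1 to FTL was 0.70, 0.66 and 0.73 in HepG2 siNC and 2.07, 1.74 and 1.80 in HepG2 siFASRL. In LM3 it was 4.63, 4.36 and 4.25 under siNC and 8.95, 8.88 and 8.70 under siFASRL. On this length-scaled measure the light chain level was above the heavy chain level in HepG2 siNC alone, and the ratio was 2.68 times as high under siFASRL in HepG2 and 2.005 times in LM3. The sum of both chains overlapped between the HepG2 groups (means of 10015 ± 496 and 10498 ± 913, SD, n = 3). In LM3 the sum was higher under siFASRL, at 8985 ± 288 against 6434 ± 341 (SD, n = 3).

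**Figure D3:**
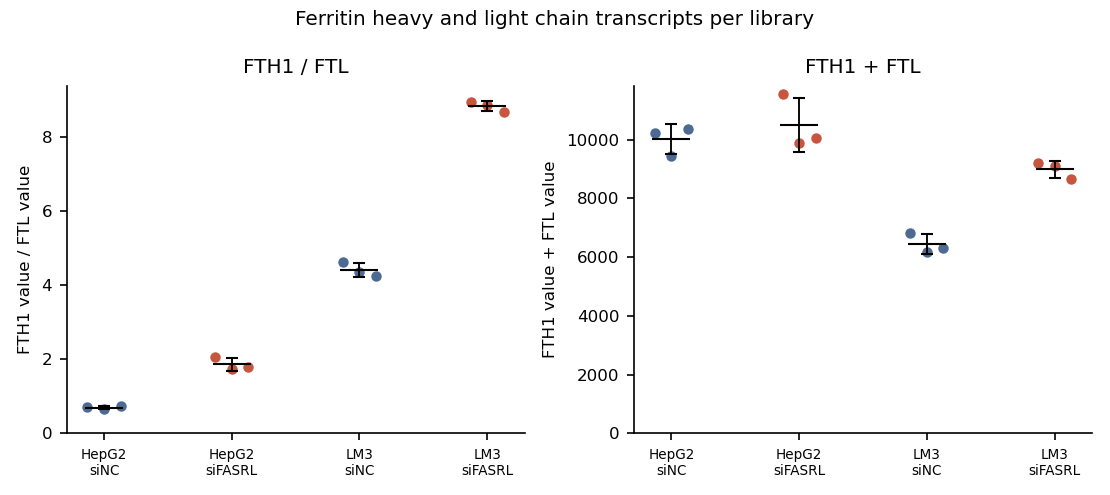
Ratio (left) and sum (right) of the FTH1 and FTL values in each library, on linear axes that start at 0. Points are replicates, wide bars are means and error bars the SD (n = 3). The ratio is higher under siFASRL in both lines, while the sum overlaps between the HepG2 groups.

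Among other genes of iron uptake and transport, 9 of 14 were tested in HepG2 and 6 in LM3. By adjusted p, 3 rose and 6 fell in HepG2, while in LM3 5 fell and SLC39A8 did not pass the test. Over all genes the shares higher and lower were 44.8% and 44.3% in HepG2 and 33.9% and 43.5% in LM3. The median log2 change was -0.59 in HepG2 and -0.68 in LM3, beside 0.10 and -0.06 over all genes. TF, which encodes the plasma iron carrier transferrin, fell in HepG2 from 462 ± 33.8 to 141 ± 14.8 (SD, n = 3), a log2 change of -1.70 (limma BH-adjusted p = 1.59e-07), and was at 0.17 or less in every LM3 library. CYBRD1, a ferric reductase of the cell surface, fell from 8.93 to 3.33 in HepG2 and from 7.83 to 1.80 in LM3 (log2 changes of -1.20 and -1.66). SCARA5, a receptor reported for ferritin, fell by 0.85 in HepG2 and by 1.14 in LM3 on the log2 scale. With a pseudocount of 0.1 the HepG2 change was -1.496 and past the threshold, and the LM3 change, past the threshold, was at -0.95 under quantile normalization. In HepG2, SCARA5 was at 2.04, 1.69 and 2.01 under siNC and at 0.74, 0.57 and 0.54 under siFASRL. It reached the filter there through siNC alone, where it is high, so its HepG2 change is a description. STEAP1, of a family of metalloreductases, was past the threshold and higher in HepG2 (1.27), and it was listed at 0 in all 6 LM3 libraries. SLC11A2, which carries ferrous iron out of endosomes, was lower in both lines (-0.50 and -0.74). STEAP1, STEAP2 and the metal transporter gene SLC39A8 were the 3 that rose in HepG2. STEAP2 was at 0.97, 0.89 and 0.78 under siNC and at 1.11, 1.52 and 1.34 under siFASRL. It thus reached the filter through siFASRL alone, where it is high, and its rise is a description.

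Among genes of iron storage, release and export other than the ferritins, 6 of 10 were tested in HepG2 and 5 in LM3. In HepG2 1 was higher and 4 were lower by adjusted p, and in LM3 1 was higher and 4 were lower. Of all genes, 44.8% were higher and 44.3% lower in HepG2, and 33.9% and 43.5% in LM3. The medians were -0.58 and -0.34 beside 0.10 and -0.06 over all genes. HMOX1, the heme oxygenase that frees iron from heme, was past the threshold in both lines (log2 changes of -1.02 and -1.22, limma BH-adjusted p = 3.12e-07 and 2.11e-06). In HepG2 it fell short of it with median-of-ratios scaling (-0.99), without HepG2 siFASRL replicate 2 (-0.99) and without HepG2 siNC replicate 1 (-0.999). SLC48A1, a heme transporter, was lower in both lines (-0.66 and -0.98, the latter past the threshold at -1.002 without LM3 siFASRL replicate 1 and at -1.05 with a pseudocount of 0.1), as was PCBP1, an iron chaperone that loads ferritin (-0.65 and -0.25, the latter at -0.15 with median-of-ratios scaling and -0.42 under quantile normalization).

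Of 8 genes of iron sensing, 5 were tested in each line. IREB2, which encodes iron regulatory protein 2, was lower in HepG2 (-1.03, past the threshold, limma BH-adjusted p = 2.19e-07) and in LM3 (-0.43, adjusted p = 0.000206). ACO1, which encodes iron regulatory protein 1, was lower in LM3 (-0.31) and had means of 19.8 and 21.6 in HepG2, where it did not pass the test (adjusted p = 0.0564). EPAS1, a hypoxia-inducible factor whose translation iron regulates, was higher in both lines (1.39, past the threshold, and 0.90). Of 27 genes of iron-sulfur cluster assembly 17 were tested in each line, and in both lines 11 were higher by limma adjusted p, with 3 lower in HepG2 and 4 in LM3. Of all genes, 44.8% were higher and 44.3% lower in HepG2, and 33.9% and 43.5% in LM3. None was past the threshold (0 in each line), beside 10.4% of all genes in HepG2 and 7.62% in LM3. The medians were 0.24 and 0.22 beside 0.10 and -0.06 over all genes. GLRX3 (0.84 and 0.48) and FDX2 (0.67 and 0.55) were higher in both lines and ISCA2 was lower in both (-0.80 and -0.81). All but CIAPIN1 and LYRM4 in LM3 and all but BOLA3, CIAO1 and MMS19 in HepG2 also had an unadjusted p under 0.05. FDXR, a ferredoxin reductase, was higher in HepG2 (0.37) and lower in LM3 (-0.9997), where it was just short of the threshold and passed it without LM3 siFASRL replicate 1 (-1.003) or 3 (-1.01) and without LM3 siNC replicate 1 (-1.09) or 3 (-1.02). It was -1.29 with a pseudocount of 0.1 and -0.54 under quantile normalization.

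**Figure D4:**
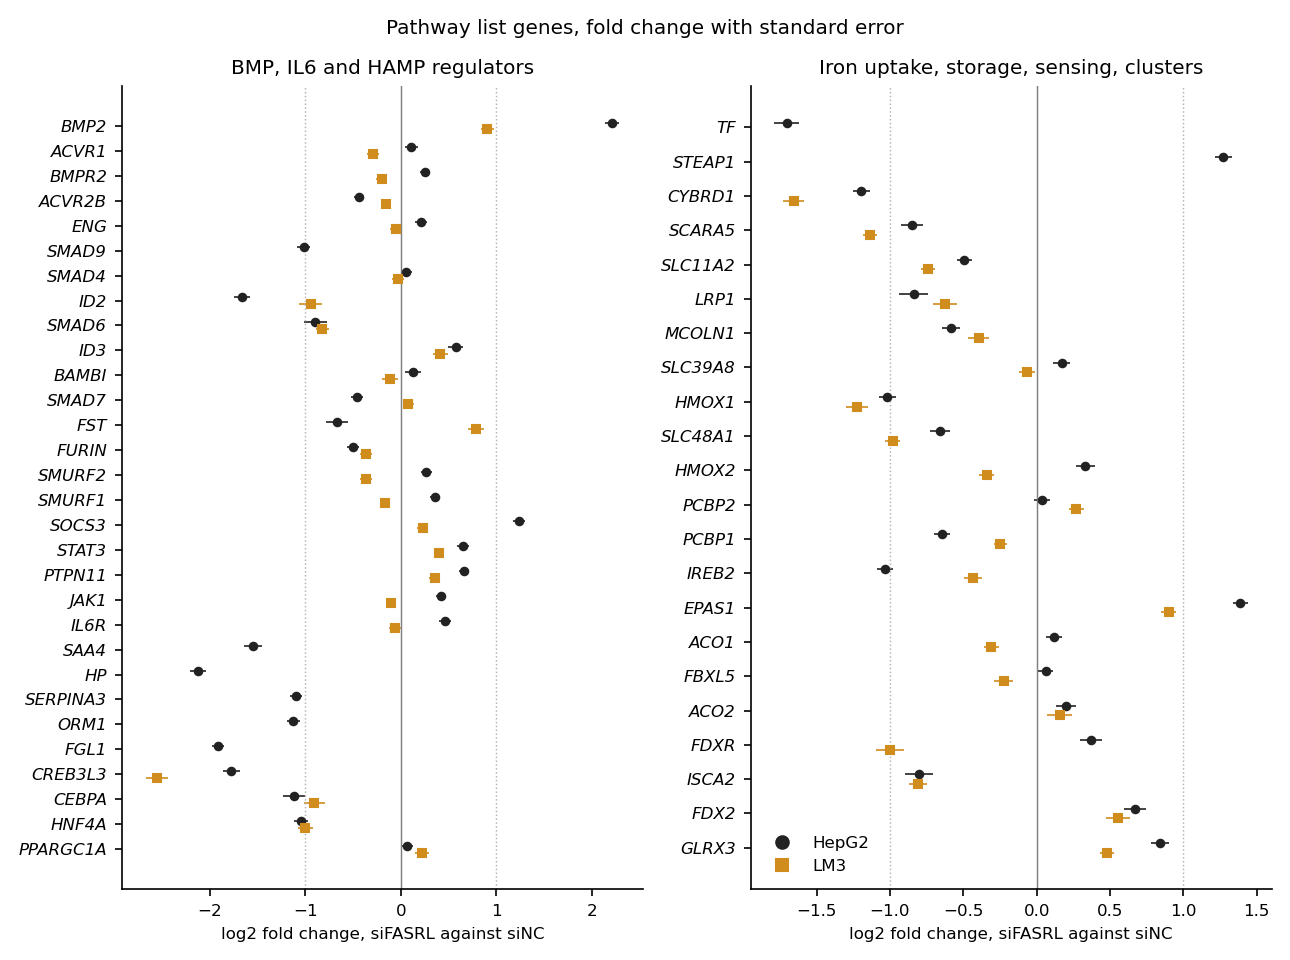
Log2 fold change of siFASRL against siNC with its SE for the named genes of the pathway lists, in HepG2 (circles) and LM3 (squares), with dotted lines at -1 and 1. Genes that did not pass the filter in LM3 have a circle alone. BMP2, SOCS3, STEAP1 and EPAS1 lie above 1 in HepG2, and CREB3L3, CYBRD1 and HMOX1 lie below -1 in both lines.

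The lines differed before any knockdown. HAMP passed the filter under siNC through HepG2 alone, where it is high, and is left out of the count. The shares over all genes keep genes that passed through 1 line alone, so count and share follow unlike rules. Of the other 6 genes tested, 2 were past the threshold, both lower in LM3, against 23.4% of all genes, and all 6 had an adjusted p under 0.05, as did 80.9% of all genes. TFRC was lower in LM3 (log2 change -1.53, SE 0.053, limma BH-adjusted p = 3.67e-08), and so was FTL (-2.31, SE 0.054, limma BH-adjusted p = 3.61e-09). TFR2 (0.86), BMP6 (0.42) and FTH1 (0.35) were higher in LM3 and HFE (-0.73) was lower, all 4 short of the fold change threshold. Under quantile normalization TFR2 passed it (1.11), FTH1 was at 0.97 and BMP6 at 0.70. Cell line and culture cannot be told apart here.

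The effect of knockdown on the group also differed in size between the lines, which is given as a description because it contains the HepG2 contrast. The LM3 effect minus the HepG2 effect was 0.80 (SE 0.086) for TFR2, -1.01 (SE 0.110) for BMP6, -0.40 (SE 0.091) for HFE and -0.36 (SE 0.068) for TFRC. With a pseudocount of 0.1 the value for TFR2 was 1.02, and under quantile normalization that for HFE was -0.09. FTL differed by 0.31 (SE 0.065), which turned to -0.35 under quantile normalization. For HAMP it was 2.80 (SE 0.114), since the values in LM3 were near 0. FTH1 differed by -0.11 (SE 0.117), within its error, and by -0.88 under quantile normalization. At an absolute difference of at least 1 and a limma adjusted p under 0.05, BMP6 was counted, beside 4.84% of all genes. Nothing is read from this. HAMP passed the filter through HepG2 alone, where it is high, and is left out of this count. The 4.84% keeps genes of that kind. BMP6 fell under 1 in size with median-of-ratios scaling (-0.94) and without HepG2 siNC replicate 1 (-0.99), LM3 siFASRL replicate 3 (-0.97), LM3 siNC replicate 2 (-0.94) or LM3 siNC replicate 3 (-0.97).

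The 5 genes whose values were most like those of HAMP over the 12 libraries, by Pearson's r on the log2 scale, were PLA2G2A (0.9994), SERPINA7 (0.9993), HP (0.9993), SPARC (0.9992) and SERPINF2 (0.9992), among 4913 genes compared. All 5 were high in HepG2 siNC, lower in HepG2 siFASRL and near 0 in LM3. So high an r was common, and 188 genes had an r above 0.99. The part of the difference between the 2 lines in this was not tested. By Spearman's rho, 5 other genes led and 0 were shared. PLA2G2A, a secreted phospholipase, went from a mean of 224 in HepG2 siNC to 31.4 in HepG2 siFASRL.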

How the data were processed

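Gene expression was measured by RNA-seq in 12 libraries of HepG2 and LM3. The deposited values are normalized RSEM values per gene, made by the authors with SOAPnuke, HISAT2, Bowtie2 and RSEM and scaled for gene length and library size; whether they are FPKM or TPM is not given in the sources used here. The labels name hg19, while the files' chromosome accessions are those of GRCh38. Values have 2 decimals and are not counts, so depth is unknown; the strand of counting is not given in the sources used here. One file carried 6 copied columns of other libraries, which were identical. Groups came from the sample labels, and 8790 of 8842 gene IDs matched RefSeq.

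Each comparison (siFASRL against siNC within each line, LM3 against HepG2 under siNC, and the difference of effects) was fitted to log2(value + 1) by limma 3.58.1 in R 4.3.3 over the genes that reached 1 in 3 or more of the libraries fitted, with p-values adjusted by Benjamini-Hochberg. The count model of the study, DESeq2, was not used, as the values are not counts. The fits were tested on simulated data. Named pathway genes were those past the threshold in either line and, per list, up to 4 further tested genes with the largest changes in LM3. Other genes named to complete a count (STEAP2, BOLA3, CIAO1, MMS19, CIAPIN1, LYRM4 and the markers) were picked with their values known. The members and lists were chosen with earlier results of these data known. Alternatives were a pseudocount of 0.1, no filter, median-of-ratios and quantile scaling, 1 fit of all 12 libraries, the replicate block and leaving out each library. Promoters are RefSeq's (GRCh38.p14) and transcripts GENCODE's. Python 3.11.15, pandas 2.3.3, numpy 2.4.6 and matplotlib 3.10.9 were used. Some items are not reported here.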

Additional observations from a re-analysis of the deposited data

Results flagged for a closer look

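Of 52 named pathway genes tested for a difference of effect between the lines (LM3 minus HepG2, log2, limma with BH adjustment), 38 had an adjusted p under 0.05, beside 46.7% of all genes. The 52 were picked partly for large changes, which favours a high count, and nothing is read from it. The 38 include SAA4, HP, SERPINA3, ORM1, FGL1, TF, STEAP1 and SMAD9, which passed the filter through HepG2 and were not tested in LM3. For these genes the test mostly restates the HepG2 change and is a description. Of the 38, 14 differed by at least 1 in size or had opposite directions with an adjusted p under 0.05 in each line. The 14 include FGL1, HP, ORM1, SAA4, TF and STEAP1, which entered the fit through HepG2 alone, where they are high. Their differences are a description.

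The 6 genes with opposite directions, each passing the test in both lines, were lower in LM3 and higher in HepG2, except FST. BMPR2 differed by -0.45 (its LM3 direction turns under quantile normalization), FDXR by -1.37 (-0.88 under quantile normalization), HMOX2 by -0.67, SMURF1 by -0.52 and SMURF2 by -0.63. The LM3 change of SMURF1, -0.16, did not pass the test with median-of-ratios scaling (-0.07, limma adjusted p = 0.226), under quantile normalization (-0.08), or without LM3 siFASRL replicate 1 (-0.15) or LM3 siNC replicate 3 (-0.14), and its adjusted p ranged from 0.00569 to 0.226 over the alternatives. BMPR2 in LM3 did not pass with median-of-ratios scaling (-0.12) or quantile normalization (0.08), and the LM3 change of SMURF2, -0.36, was -0.20 under quantile normalization. FST, which encodes the activin and BMP binder follistatin, was higher in LM3 and lower in HepG2 and differed by 1.45, and its HepG2 change of -0.66 was -0.40 under quantile normalization.

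For FGL1 (1.96), HP (2.04), ORM1 (1.13), SAA4 (1.55), TF (1.62) and STEAP1 (-1.27) the difference is the HepG2 change alone, since their LM3 values were at or near 0. The ORM1 difference lost its adjusted p under 0.05 with a pseudocount of 0.1 (1.15). BMP2 (-1.31) rose in both lines and more in HepG2. SOCS3 (-1.0) also rose in both, and its difference was under 1 in size with a pseudocount of 0.1 (-0.97), median-of-ratios scaling (-0.95), quantile normalization (-0.66) and without 6 of the 12 libraries in turn. Groups of 3 libraries were not searched for outlying samples.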

How the results depend on the processing

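Depth is unknown, so the counting error of low values cannot be given, and 3 libraries a group limit every test. With a pseudocount of 0.1, genes past the threshold went from 570 to 900 in LM3, from 847 to 1373 in HepG2 and from 401 to 664 for the difference of effects, pathway genes in LM3 from 4 to 10 and hepcidin and iron handling genes in LM3 from 0 to 1 (HFE). Median-of-ratios scaling gave 1 (TFRC). Quantile normalization gave 315 genes in LM3 and shifted the LM3 median by 0.103; higher calls went from 18.6% (106 higher, 464 lower) to 34.6% (109 and 206) in LM3, from 34.7% (294 and 553) to 47.3% (445 and 496) in HepG2 and from 33.1% (633 and 1278) to 48.2% (964 and 1034) between the lines. The cause was not tested.

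In LM3, directions turned with median-of-ratios scaling for ENG (0.0498), IL6R (0.02), SMAD4 (0.0543) and SLC39A8 (0.0289), and with quantile normalization for IL6R (0.26), SMAD4 (0.21), SLC39A8 (0.0594), BMPR2 (0.0795), ACVR1 (0.0964) and ACVR2B (0.21). Quantile normalization also turned PCBP2 in HepG2 (-0.0393) and the FTL difference between lines (-0.35). The cause was not tested.

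Leaving out 1 library gave 485 to 577 genes in LM3, 766 to 871 in HepG2, 1339 to 1863 between the lines and 367 to 408 for the difference. Without HepG2 siNC replicates 1, 2 and 3, the lower calls between the lines were 714, 702 and 719, against 1278. The higher calls were then 632, 637 and 652, against 633, which made 47%, 47.6% and 47.6% of the calls. Pathway genes past the threshold in LM3 ranged from 4 to 7 (7 without LM3 siNC replicate 1), and the hepcidin group in LM3 from 0 to 1 (1 without LM3 siFASRL replicate 1). Between the lines pathway genes ranged from 11 to 28, with 12, 12 and 11 without HepG2 siNC replicates 1, 2 and 3, because genes near 0 in LM3 then lack 3 libraries above the filter. SMAD4 in LM3 ranged from -0.0738 to 0.0162, with 0.0146 without LM3 siFASRL replicate 1 and 0.0162 without LM3 siNC replicate 1.

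The labels do not say whether replicate numbers pair the libraries. Deviations of same-numbered libraries correlated at 0.319, 0.371 and -0.2 in HepG2 and -0.0801, 0.118 and -0.175 in LM3. A library correlated best with its own number only for HepG2 1 and 2 and LM3 2. With 3 libraries a group, these correlations cannot decide whether the libraries are paired. With the replicate block 570, 847, 1911 and 401 genes were past the threshold and 5 of 6 group genes kept an adjusted p under 0.05 in LM3 (not TFR2). The fit of all 12 libraries and the fit without a filter moved no named gene across the threshold.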
